A study of Homo sapiens with 8 samples.

Results

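The genes described are 50 interferon-stimulated genes and interferon regulators, chosen by symbol from a fixed list, in MOLM-14 cells with and without a hairpin against CD39. Of the 50 symbols, 36 had a probe set that the platform annotation names, out of 14884 named genes in all, and each of the 36 had 1 probe set. IFI6, IFI16, IFI27, IFI30, MX1, OAS1, OAS2, OAS3, STAT2, PARP9, PARP14, CMPK2, GBP1 and GBP2 had none named here and were not analysed here. MOLM-14 is an established line of human acute myeloid leukaemia with monocytic features. The tested group expressed a short hairpin RNA (shRNA) against ENTPD1, the gene of the surface enzyme CD39 (shCD39, 4 arrays), and the control group expressed a scrambled hairpin (shCTRL, 4 arrays). Both groups had 72 h of doxycycline, which switched on the hairpin, so effects of the drug itself are common to both. The labels call the arrays of a group technical replicates and the protocol speaks of clones, so the tests below speak for the spread among arrays and not among separate cultures.

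Interferons are secreted proteins that bind receptors on the cell surface and, through JAK kinases, activate transcription factors. A complex that contains IRF9 then binds the interferon-stimulated response element in the promoters of antiviral genes. The induced genes include sensors of viral RNA, proteins that block viral entry or translation, and the ubiquitin-like protein ISG15 with its enzymes. Members of the IRF family also act outside infection, and IRF8 is a regulator of monocyte development.

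The shared promoter sequence is shown first because the members with it lay on both sides of the comparison described below. RefSeq promoter windows of GRCh38.p14, from 250 bases before to 50 bases after a gene's start, were at hand for 40 of the 50 listed genes. The response element was searched as GAAA, any 2 bases and GAAA again, on both strands and over all windows of a gene. It was found in 25 of the 40 listed genes (62.5%) and in 4.38% of 27305 genes with a window. A match describes the letters in the window and does not show a bound site. The stretches below lie upstream of the start, run 5′ to 3′ in the direction of the gene, and carry 1 match each in capitals; where the capitals start with TTTC the element is on the opposite strand. The IFITM3 stretch holds a further match in lower case, and in the BST2 stretch a further match overlaps the one in capitals. The first 4 belong to genes with higher means in shCD39 and the last 3 to genes with lower means.
IFI44: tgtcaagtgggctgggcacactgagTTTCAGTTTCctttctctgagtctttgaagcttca
IFITM3: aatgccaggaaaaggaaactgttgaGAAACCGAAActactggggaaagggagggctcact
BST2: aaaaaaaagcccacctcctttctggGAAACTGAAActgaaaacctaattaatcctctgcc
SAMD9: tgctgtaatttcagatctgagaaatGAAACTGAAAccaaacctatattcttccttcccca
IFIT5: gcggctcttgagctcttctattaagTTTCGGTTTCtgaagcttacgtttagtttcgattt
DDX60: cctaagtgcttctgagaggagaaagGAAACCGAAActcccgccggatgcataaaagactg
IFIH1: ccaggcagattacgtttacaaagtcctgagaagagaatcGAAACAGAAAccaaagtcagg
These stretches are chr1:78649746-78649805 (plus strand) for IFI44, chr11:320861-320920 (minus) for IFITM3, chr19:17405726-17405785 (minus) for BST2 and chr7:93118081-93118140 (minus) for SAMD9. The others are chr10:89414498-89414557 (plus) for IFIT5, chr4:168318771-168318830 (minus) for DDX60 and chr2:162318685-162318744 (minus) for IFIH1.

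The deposited table held log2 expression values of 53617 probe sets on 8 arrays. The medians of the arrays were 3.13 to 3.17, with correlations between arrays of 0.974 to 0.987. ENTPD1, the targeted gene, read 2.42, 2.14, 2.72 and 2.95 on shCD39 arrays 1 to 4, against 3.16, 2.88, 3.21 and 4.12 on shCTRL arrays 1 to 4. Its log2 fold change, always shCD39 minus shCTRL, was -0.79 (SE 0.25, limma adjusted p = 0.178), and shCD39 array 4 read above shCTRL array 2, so the groups overlapped. All 4 shCD39 arrays and shCTRL array 2 read below the array medians, so the gene was dim there. With 1 array left out the log2 fold change of ENTPD1 ran from -0.94 to -0.53, the latter without shCTRL array 4. The 8 measured markers of the myeloid line averaged 7.31 to 7.60 per array in shCD39 and 7.24 to 7.55 in shCTRL, and 5 of them had lower means in shCD39 (median log2 fold change -0.15). CD34, a marker of immature cells, and CD14, one of mature monocytes, lay below the array medians on every array. The 5 measured markers of T and NK cells averaged 4.09 to 4.42 per array in shCD39 and 3.90 to 4.32 in shCTRL. Of 6 listed markers of plasmacytoid dendritic cells, the main interferon producers of blood, only TCF4 and SPIB were measured. Their mean per array was 4.77 to 5.34 in shCD39 and 4.79 to 5.01 in shCTRL. All 12 measured monocyte markers had higher means in shCD39 (array means 5.37 to 5.93 in shCD39 against 4.99 to 5.19 in shCTRL), and all 15 DNA replication genes had lower means (7.12 to 7.87 in shCD39 against 7.84 to 8.21 in shCTRL). The sign of 2 of the 12 monocyte markers turned when 1 array was left out, and 4 of the 12 changed by less than 0.1. The part of these shifts in the values below was not tested. Values per array of a marker list are means of log2 values over its measured genes.

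As a set the interferon genes lay close to the bulk of genes. Of the 36 measured, 17 had a higher and 19 a lower mean in shCD39, and the median log2 fold change was -0.02, against 0.01 over all genes. Their median absolute change was 0.13, the same value as over all genes, and 12 of 36 changed by less than 0.1. None passed an adjusted p of 0.05 (limma, Benjamini-Hochberg over all genes; lowest 0.186, XAF1), where 0.0941% of all genes passed. At an unadjusted p under 0.05 there were 4 members (11.1%), against 14.7% of all genes. These were IFI44, SAMD9 and BST2, higher in shCD39 (6.54% of all genes are called in that direction), and XAF1, lower (8.13%). In 0 of 36 members did the 4 shCD39 arrays lie wholly on 1 side of the 4 shCTRL arrays, while 7.85% of all genes did.

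**Figure D1:**
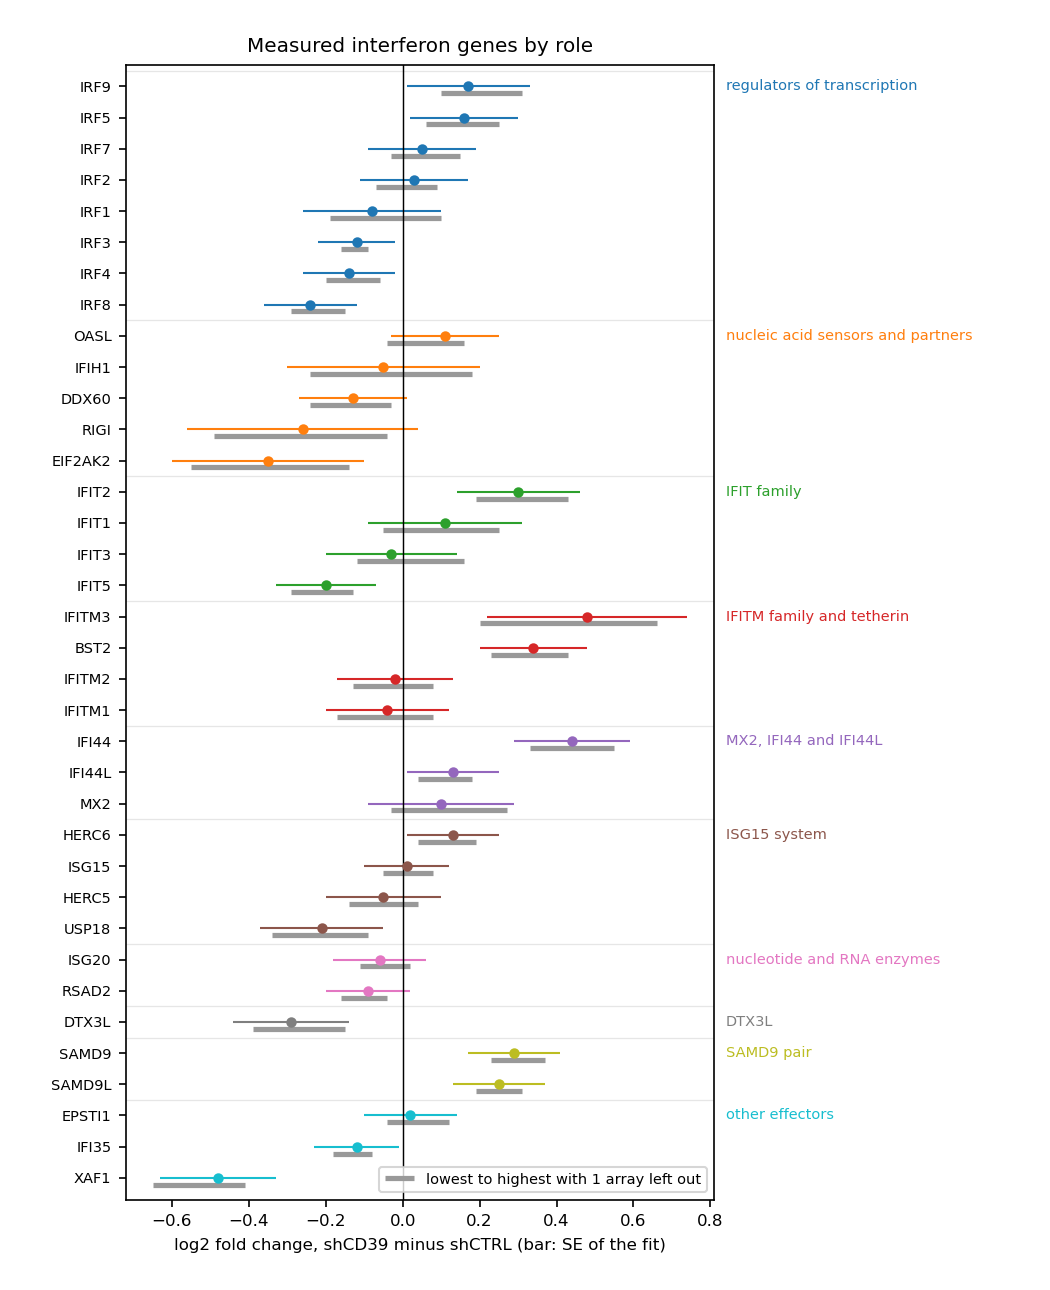
Log2 fold change (shCD39 minus shCTRL, horizontal axis) of the 36 measured members, grouped by role, with the SE of the fit as a thin bar and, below each, the lowest to highest value with 1 array left out as a grey bar. Values run from -0.48 (XAF1) to 0.48 (IFITM3), and the grey bars of 14 members cross 0.

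The regulators of transcription comprised 8 measured genes, 4 with higher and 4 with lower means, from -0.24 (IRF8) to 0.17 (IRF9). IRF8, which directs monocyte and dendritic cell development, read 9.58, 9.57, 9.70 and 9.26 in shCD39, against 9.78, 9.77, 9.87 and 9.63 in shCTRL. Of the shCD39 arrays 3 lay below every shCTRL array, and only shCD39 array 3 at 9.70 lay above shCTRL array 4 at 9.63. The log2 fold change was -0.24 (SE 0.12, adjusted p = 0.395; exact permutation p = 0.0571, 2-sided). IRF9, a DNA-binding subunit of the complex at the response element, read 5.08, 5.29, 5.37 and 4.85 in shCD39, against 4.86, 4.80, 5.41 and 4.84 in shCTRL. Its highest value of all was that of shCTRL array 3, and without that array the log2 fold change was 0.31 instead of 0.17 (SE 0.16).

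IRF5, which acts downstream of Toll-like receptors, read 4.76, 5.17, 4.65 and 4.88 in shCD39, against 4.60, 4.73, 4.50 and 4.98 in shCTRL, an overlapping difference of 0.16 (SE 0.14). IRF4, a lymphoid and dendritic cell factor, was dim on every array, at 1.92, 2.23, 2.35 and 2.22 in shCD39 and 2.27, 2.22, 2.46 and 2.34 in shCTRL, a log2 fold change of -0.14 (SE 0.12). IRF3, the factor that first switches on interferon beta, had -0.12 (SE 0.10), with 3 shCTRL arrays above all shCD39 arrays. IRF7, which amplifies interferon alpha production, had 0.05 (SE 0.14), and IRF2, an antagonist of IRF1, had 0.03 (SE 0.14). IRF1, induced by interferon gamma, had -0.08 (SE 0.18), and the sign depended on shCD39 array 1, at 5.19 the lowest of all arrays: without it the log2 fold change was 0.10. The smallest adjusted p among the 8 regulators was 0.395, that of IRF8.

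The genes of 3 RNA sensors and IFITM3 had the widest ranges among the shCD39 arrays. EIF2AK2, the gene of the kinase PKR that halts translation on double-stranded RNA, read 6.60, 7.60, 6.46 and 7.69 in shCD39, against 7.47, 7.37, 7.47 and 7.46 in shCTRL. RIGI, a helicase that senses viral RNA ends, read 6.03, 7.38, 6.04 and 7.33 in shCD39, against 6.66, 7.0, 6.97 and 7.20 in shCTRL. IFIH1, the gene of MDA5, which senses long double-stranded RNA, read 4.50, 5.77, 4.84 and 5.64 in shCD39, against 5.23, 5.14, 5.51 and 5.08 in shCTRL. In all 3 genes shCD39 arrays 1 and 3 lay below every shCTRL array, and shCD39 arrays 2 and 4 lay above every shCTRL array.

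Group means hide this split. The log2 fold changes were -0.35 (SE 0.25, adjusted p = 0.566) for EIF2AK2, -0.26 (SE 0.30, adjusted p = 0.747) for RIGI and -0.05 (SE 0.25, adjusted p = 0.954) for IFIH1. Within shCD39, arrays 2 and 4 averaged 7.35 and arrays 1 and 3 averaged 6.03 for RIGI, a log2 difference of 1.32. The same difference was 1.11 for EIF2AK2 and 1.03 for IFIH1. For RIGI, EIF2AK2 and IFIH1 the SD was 0.76, 0.65 and 0.61 over the shCD39 arrays, against 0.22, 0.05 and 0.19 over the shCTRL arrays. The arrays were grouped into these pairs after their values were seen, so the differences are descriptions and carry no test.

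Among all 14884 genes, 176 (1.18%) showed the pattern of shCD39 arrays 1 and 3 below and 2 and 4 above every shCTRL array, and 128 (0.86%) showed the opposite one. Of the 36 members, 3 (8.33%) had the first and 0 had the second. These 3 are the sensor genes from which the pattern was taken, so their share was set by that choice and carries no test. The other members followed the pairs less clearly: next were IRF1 with a difference of 0.56, DTX3L with 0.49, IFIT2 with 0.44 and the helicase gene DDX60 with 0.37, while IFITM3 ran the other way with -0.83. Over the 36 members the median difference was 0.10, and over all genes it was -0.01. On shCD39 arrays 1 to 4 the monocyte markers averaged 5.63, 5.93, 5.85 and 5.37, and the DNA replication genes 7.47, 7.25, 7.12 and 7.87. Among them the full pattern was seen in 1 of 12 monocyte markers and in 0 of 15 DNA replication genes. The monocyte marker was CTSS, a lysosomal protease, at 8.31, 9.06, 8.46 and 8.90 in shCD39, against 8.49, 8.57, 8.65 and 8.76 in shCTRL. S100A8, a calcium-binding protein of monocytes, was instead highest on shCD39 arrays 1 and 3, at 6.92, 5.94, 6.84 and 6.19 in shCD39, against 5.14, 5.42, 4.98 and 5.90 in shCTRL. The largest changes of the monocyte list were those of CSF1R and FGL2, which among the shCD39 arrays were highest on 2 and 3. CSF1R read 5.67, 6.72, 6.29 and 5.11 in shCD39, against 4.24, 4.76, 4.82 and 4.53 in shCTRL. FGL2 read 6.53, 8.07, 7.88 and 6.29 in shCD39, against 5.76, 5.73, 6.85 and 5.69 in shCTRL. MPO, a granule enzyme of myeloid precursors, was lower on arrays 1 and 3 of both groups, at 6.54, 7.67, 6.26 and 7.67 in shCD39 and 7.04, 7.93, 6.59 and 8.19 in shCTRL. Whether these markers and the sensor genes share a source of variation was not tested.

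**Figure D2:**
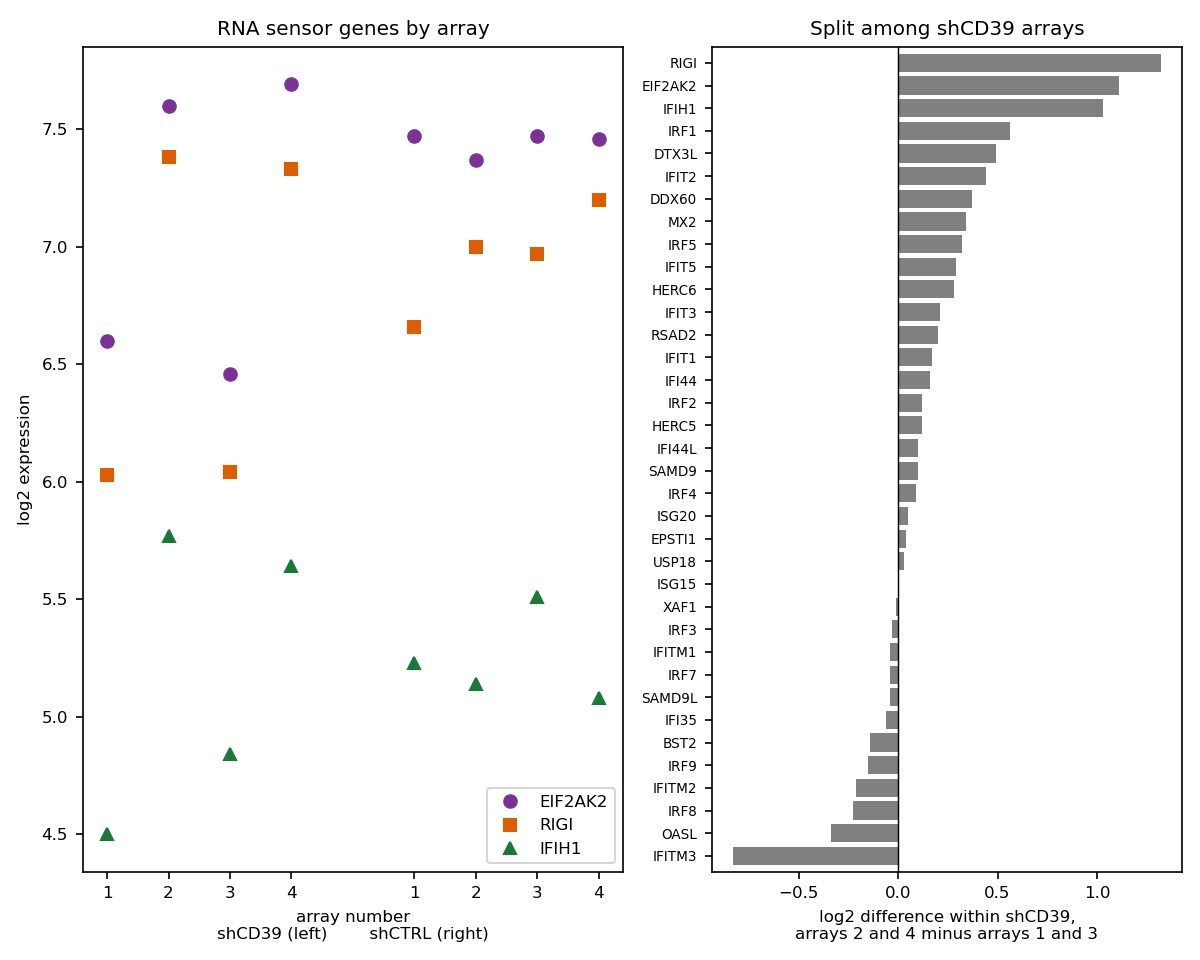
Left, log2 expression (vertical axis) of EIF2AK2, RIGI and IFIH1 on each array, shCD39 arrays 1 to 4 left and shCTRL arrays 1 to 4 right. Right, for each of the 36 members, the log2 difference within shCD39 between the mean of arrays 2 and 4 and the mean of arrays 1 and 3; RIGI (1.32), EIF2AK2 (1.11) and IFIH1 (1.03) stand above all others.

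The other sensor genes stayed nearer to the control arrays. DDX60, a helicase linked to RIGI signalling, read 6.09, 6.19, 5.88 and 6.51 in shCD39, against 6.15, 6.31, 6.25 and 6.47 in shCTRL (log2 fold change -0.13 with an SE of 0.14). Without shCD39 array 3, its lowest, the value was -0.03. OASL, an inactive relative of the oligoadenylate synthetases that assists RIGI, read 4.32, 3.74, 3.81 and 3.72 in shCD39, against 3.70, 3.87, 3.74 and 3.85 in shCTRL. Its positive log2 fold change of 0.11 rested on shCD39 array 1 alone, and without that array it was -0.04.

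The IFIT family, proteins that bind foreign RNA and hold back its translation, had 2 members higher and 2 lower. IFIT2 read 3.09, 3.80, 3.39 and 3.57 in shCD39, against 3.14, 3.02, 3.47 and 3.02 in shCTRL (log2 fold change 0.30 with an SE of 0.16, adjusted p = 0.423), with the groups overlapping. IFIT5 read 4.34, 4.69, 4.21 and 4.44 in shCD39, against 4.82, 4.43, 4.70 and 4.52 in shCTRL (-0.20, SE 0.13, adjusted p = 0.538). IFIT1 read 2.74, 2.83, 2.07 and 2.31 in shCD39, against 2.41, 2.59, 2.59 and 1.90 in shCTRL, and its 0.11 (SE 0.20) became -0.05 without shCTRL array 4. IFIT3 had -0.03 (SE 0.17), or 0.16 without shCTRL array 3. Both IFIT1 and IFIT3 were dim, below the array medians on every array. IFIT2 lay close to those medians (3.13 to 3.17) on shCD39 array 1 and on shCTRL arrays 1, 2 and 4. IFIT2 and IFIT3 are neighbours on chromosome 10, as are IFIT1 and IFIT5, and in both pairs the signs were opposite.

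IFITM proteins sit in membranes and hinder the entry of viruses, and BST2 (tetherin) holds budding virus particles at the cell surface. IFITM3 had the largest positive value of the set: it read 6.39, 5.25, 5.51 and 5.00 in shCD39, against 4.89, 5.45, 4.94 and 4.95 in shCTRL (log2 fold change 0.48 with an SE of 0.26, adjusted p = 0.423). The value leaned on shCD39 array 1, and without it the log2 fold change was 0.20, while without shCD39 array 4 it was 0.66. IFITM1 (-0.04, SE 0.16) and IFITM2 (-0.02, SE 0.15) were near 0. In all 3 IFITM genes, which lie side by side on chromosome 11, shCD39 array 1 was the highest shCD39 array and shCTRL array 2 the highest shCTRL array. The IFITM genes are closely related in sequence, and how their probes divide signal between them was not tested.

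BST2 read 5.61, 5.76, 5.79 and 5.37 in shCD39, against 5.26, 5.49, 4.96 and 5.45 in shCTRL. There 3 shCD39 arrays lay above every shCTRL array and shCD39 array 4 lay inside the shCTRL range. The log2 fold change was 0.34 (SE 0.14, unadjusted p = 0.0341, adjusted p = 0.296; exact permutation p = 0.0857), and with 1 array left out it ran from 0.23 to 0.43. Without shCD39 array 4 the groups did not overlap, as in 17% of all genes, and BST2 had the lowest adjusted p of the set, 0.132.

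IFI44 and IFI44L are neighbouring interferon-induced genes on chromosome 1. IFI44 read 1.88, 2.34, 2.20 and 2.06 in shCD39, against 1.74, 1.36, 2.02 and 1.63 in shCTRL. All of these lie below the array medians, so the gene was dim in both groups. Its log2 fold change of 0.44 (SE 0.15, unadjusted p = 0.0145, adjusted p = 0.214; exact permutation p = 0.0571) ran from 0.33 to 0.55 with 1 array left out, and the overlap came from shCD39 array 1 and shCTRL array 3. IFI44L, as dim, had 0.13 (SE 0.12). MX2, a dynamin-like GTPase that blocks some viruses at the nucleus, read 3.43, 3.66, 3.17 and 3.63 in shCD39, against 3.86, 3.57, 3.08 and 2.97 in shCTRL, and its 0.10 (SE 0.19) became -0.03 without shCTRL array 4.

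SAMD9 and SAMD9L, neighbours on chromosome 7 that restrain translation and growth and are mutated in inherited bone marrow disorders, were both higher in shCD39. SAMD9 read 7.07, 7.02, 6.82 and 7.07 in shCD39, against 6.53, 6.62, 6.74 and 6.93 in shCTRL (log2 fold change 0.29 with an SE of 0.12, unadjusted p = 0.0315, adjusted p = 0.285). SAMD9L read 6.59, 6.38, 6.25 and 6.38 in shCD39, against 5.99, 6.21, 6.06 and 6.33 in shCTRL (0.25, SE 0.12, adjusted p = 0.35). In both genes only shCD39 array 3 reached below shCTRL array 4, and both had an exact permutation p of 0.0571. Leaving out 1 array gave 0.23 to 0.37 for SAMD9 and 0.19 to 0.31 for SAMD9L. Without shCTRL array 4 the groups did not overlap in either gene (14.1% of all genes did not), nor without shCD39 array 3 (10.7%).

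ISG15 is attached to other proteins by the ligase HERC5 and removed by the protease USP18, which also blocks the interferon receptor. ISG15 read 5.67, 5.91, 5.78 and 5.54 in shCD39, against 5.81, 5.57, 5.79 and 5.69 in shCTRL, a log2 fold change of 0.01 (SE 0.11). USP18 read 5.89, 5.60, 5.98 and 6.34 in shCD39, against 6.10, 6.42, 6.18 and 5.96 in shCTRL (-0.21, SE 0.16, adjusted p = 0.597). There shCD39 arrays 3 and 4 lay inside the shCTRL range, and without array 4 the value was -0.34. HERC5 had -0.05 (SE 0.15) and its neighbour HERC6 0.13 (SE 0.12).

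DTX3L, a ubiquitin ligase that works with PARP9, read 6.78, 7.20, 6.48 and 7.04 in shCD39, against 7.05, 7.08, 7.15 and 7.36 in shCTRL (log2 fold change -0.29 with an SE of 0.15, adjusted p = 0.43). Its lowest values were again those of shCD39 arrays 3 and 1, and without shCD39 array 3 the value was -0.15. RSAD2 (viperin), which makes a chain-terminating nucleotide, had -0.09 (SE 0.11), and the nuclease ISG20 had -0.06 (SE 0.12). IFI35 had -0.12 (SE 0.11) and EPSTI1 0.02 (SE 0.12).

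XAF1, an interferon-induced partner of the inhibitor of apoptosis XIAP that favours cell death, had the largest negative value. It read 8.28, 8.32, 8.34 and 8.29 in shCD39, against 8.97, 8.90, 9.0 and 8.28 in shCTRL. The 4 shCD39 arrays agreed to an SD of 0.03, and 3 shCTRL arrays lay above all of them, while shCTRL array 4 lay just below the lowest. The log2 fold change was -0.48 (SE 0.15, adjusted p = 0.186; exact permutation p = 0.143). Without shCTRL array 4 it was -0.65 with an adjusted p of 0.0362, the only member called in any fit that left out 1 array; in that fit 0.322% of all genes were called. It was also called without both arrays numbered 4 (adjusted p = 0.0234), where 2.47% of all genes were.

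**Figure D3:**
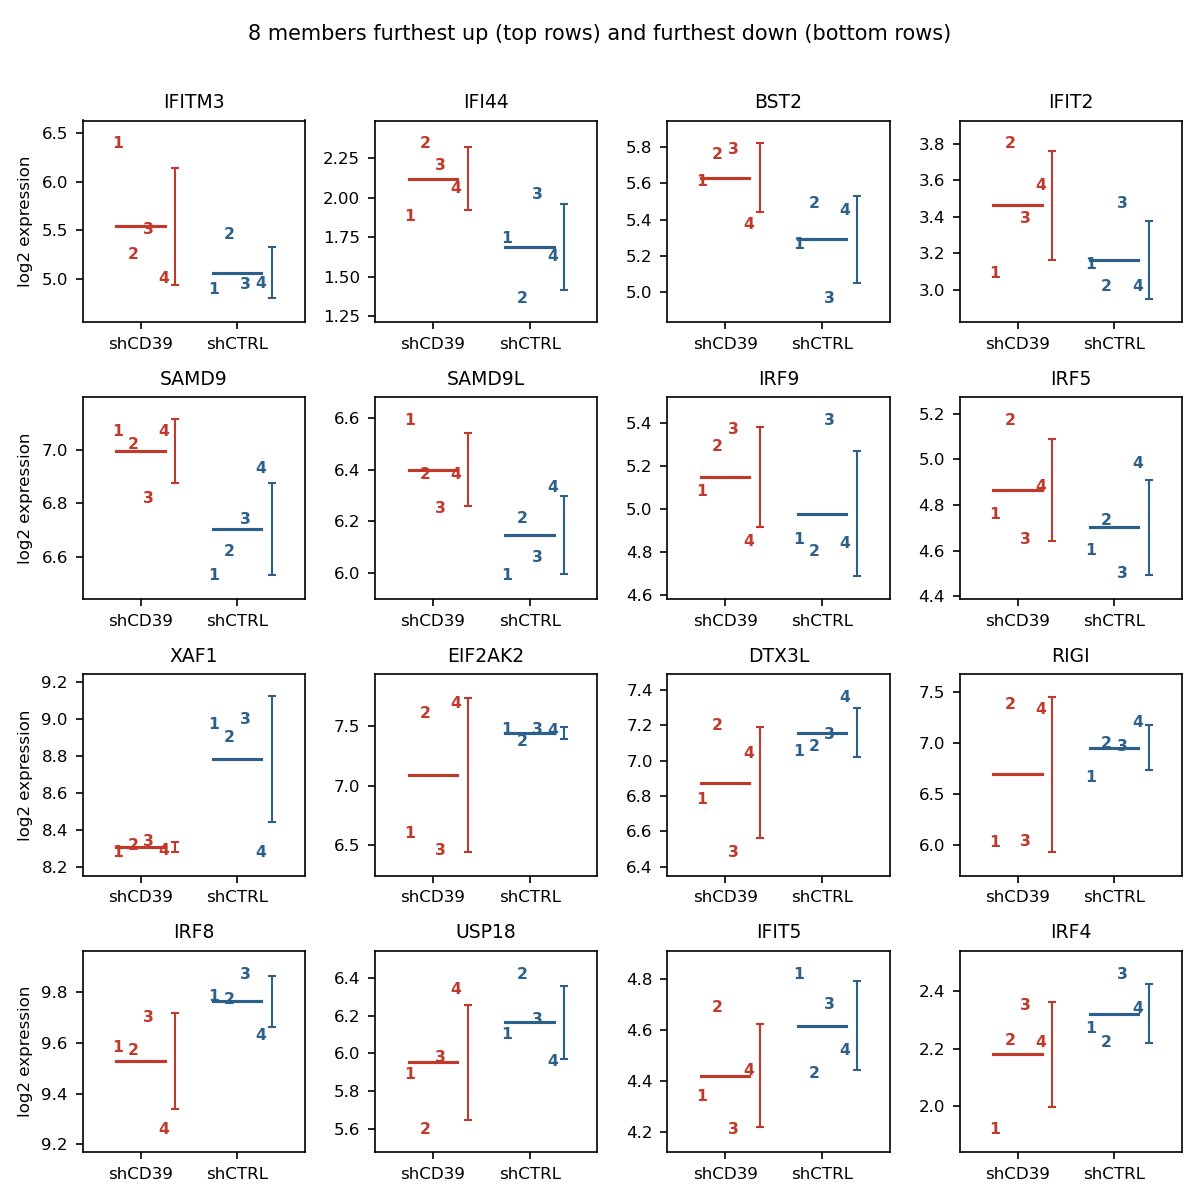
Log2 expression (vertical axis, own scale per gene) of the 8 members with the largest positive and the 8 with the largest negative change; numerals mark the array number, horizontal lines the mean and vertical bars the SD (n = 4 arrays per group, shCD39 left, shCTRL right). In each gene the groups overlap; in XAF1 only shCTRL array 4 lies with the shCD39 arrays, and in EIF2AK2 and RIGI the shCD39 arrays split into pairs around the shCTRL arrays.

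Single arrays decided the sign of many members. With each of the 8 arrays left out in turn, 22 of 36 members (61.1%) kept their sign every time, 10 higher and 12 lower, against 65.2% of all genes. The 14 whose sign turned had log2 fold changes of at most 0.11 in size. The number with a higher mean ran from 13, without shCTRL array 4, to 21, without shCTRL array 3. Without shCD39 array 4, when 2.84% of all genes were called, 0 of 36 members were (limma; 6, or 16.7%, at an unadjusted p under 0.05, against 18.9% of all genes). With 1 array left out, at most 4 members had groups that did not overlap (11.1%, without shCTRL array 4, against 14.1% of all genes), and without both arrays numbered 4 there were 6 (16.7%, against 23.9% of all genes). The array that was highest of all 8 was shCD39 array 2 in 10 members (27.8%, against 14% of all genes) and shCTRL array 3 in 8 (22.2%, against 9.84%). The lowest was shCD39 array 3 in 7 members (19.4%, against 16.8% of all genes). Per array, the median deviation of the members from their own mean over all arrays lay between -0.09 (shCD39 array 3) and 0.14 (shCD39 array 2) in shCD39 and between -0.04 and 0.12 (shCTRL array 3) in shCTRL. Over all genes it lay between -0.01 and 0.01, but the processing gave all arrays a shared distribution, which holds that median near 0. A median over 36 genes also varies more, and other sets of that size were not tested.

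Members with the promoter element lay on both sides of 0, as did members without it. Of 28 measured members with a window, 18 held it, of which 8 had higher and 10 lower means, with a median log2 fold change of -0.03 and a range of -0.35 to 0.48. The 10 without it had 4 higher and 6 lower, a median of -0.10 and a range of -0.48 to 0.25. EIF2AK2 and IFIH1 held the element, and RIGI did not in the window searched. The shorter gamma-activated site, searched as TTCNNNGAA, was in 11 of the 40 listed genes (27.5%) and in 9.38% of all genes with a window; the motifs overlapped at 8 places in the members' windows. Of 7 pairs of members that lie next to each other in the genome and were both measured, 3 pairs had the same sign.

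Upstream and related genes of the pathway came from lists written with the members known. Of 16 genes of JAK-STAT signalling and its inhibitors 8 were measured, and 7 had higher and 1 a lower mean (median log2 fold change 0.13), with 0 past the threshold. SOCS1, a feedback inhibitor of JAK kinases, read 6.37, 6.44, 6.59 and 6.33 in shCD39, against 5.98, 5.66, 5.98 and 5.60 in shCTRL, without overlap. Its log2 fold change was 0.63 (SE 0.12, limma adjusted p = 0.0788). The exact permutation p was 0.0286, the smallest that 4 against 4 arrays allow. SOCS1 was 1 of the 8 without overlap, where 7.85% of all genes did not overlap. With 1 array left out its limma adjusted p ran from 0.0298, without shCD39 array 4, to 0.208. Without shCD39 array 4, 2.84% of all genes were called. SOCS3, a related inhibitor, had 0.42 (SE 0.16, adjusted p = 0.254), with shCD39 array 4 inside the shCTRL range. IFNGR1, the ligand-binding chain of the interferon gamma receptor, had 0.25 (SE 0.13, adjusted p = 0.394).

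Of 27 measured genes among 49 other interferon-induced genes, 18 had higher and 9 lower means (median 0.06, 0 past the threshold). The largest changes were those of TRIM22, TRIM21 and TRIM38, ring-finger proteins of antiviral defence. TRIM21, an antibody receptor inside the cell, read 6.46, 6.0, 5.98 and 6.02 in shCD39, against 5.36, 5.79, 5.22 and 5.67 in shCTRL, without overlap (0.60, SE 0.16, adjusted p = 0.12). TRIM38 likewise did not overlap (0.49, SE 0.13, adjusted p = 0.121). With 1 array left out its limma adjusted p ran from 0.0421, without shCD39 array 4, to 0.287. Without shCD39 array 4, 2.84% of all genes were called. GBP3 (0.44, SE 0.15, adjusted p = 0.2) did not overlap either, which made 3 of the 27, where 7.85% of all genes did not overlap. TRIM22 had 0.76 (SE 0.26, adjusted p = 0.212), and it was highest on shCD39 arrays 1 and 3, at 7.90 and 8.08, with 7.02 and 6.75 on arrays 2 and 4, against 6.46 to 6.98 in shCTRL. NMI, an interferon-induced partner of IFI35, had the pattern of the RNA sensors, at 6.66, 7.5, 6.53 and 7.52 in shCD39, against 7.36, 7.27, 7.47 and 7.41 in shCTRL (-0.33, SE 0.21, adjusted p = 0.53). Of all 55 measured genes in the pathway lists it was the only one with that pattern, and the kinase gene TYK2 the only one with its opposite.

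Of 18 listed innate sensors and adaptors 16 were measured, 15 of nucleic acid sensing and TLR4; 7 had higher and 9 lower means (median -0.01 with or without TLR4, 0 past the threshold). TLR4, the receptor for bacterial lipopolysaccharide, read 4.83, 3.70, 4.95 and 3.79 in shCD39, against 3.55, 3.73, 3.80 and 3.74 in shCTRL, so that arrays 1 and 3 stood above and arrays 2 and 4 lay at the control level (0.61, SE 0.26, adjusted p = 0.301). TLR8, a receptor for single-stranded RNA, had 0.39 (SE 0.18), but it was dim, below the array medians on every array. TRIM25, the ligase that activates RIGI, had -0.25 (SE 0.11, adjusted p = 0.335) with 4 shCD39 arrays below the 4 shCTRL arrays. CGAS (-0.24, SE 0.1, adjusted p = 0.309) did not overlap either, which made 2 of the 16, where 7.85% of all genes did not overlap. Of 19 interferon gamma targets of antigen presentation 4 were measured, with values from -0.07 (ERAP1) to 0.08 (B2M) and TAPBP at 0.03. None of the 21 listed interferon genes had a probe set named here.

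**Figure D4:**
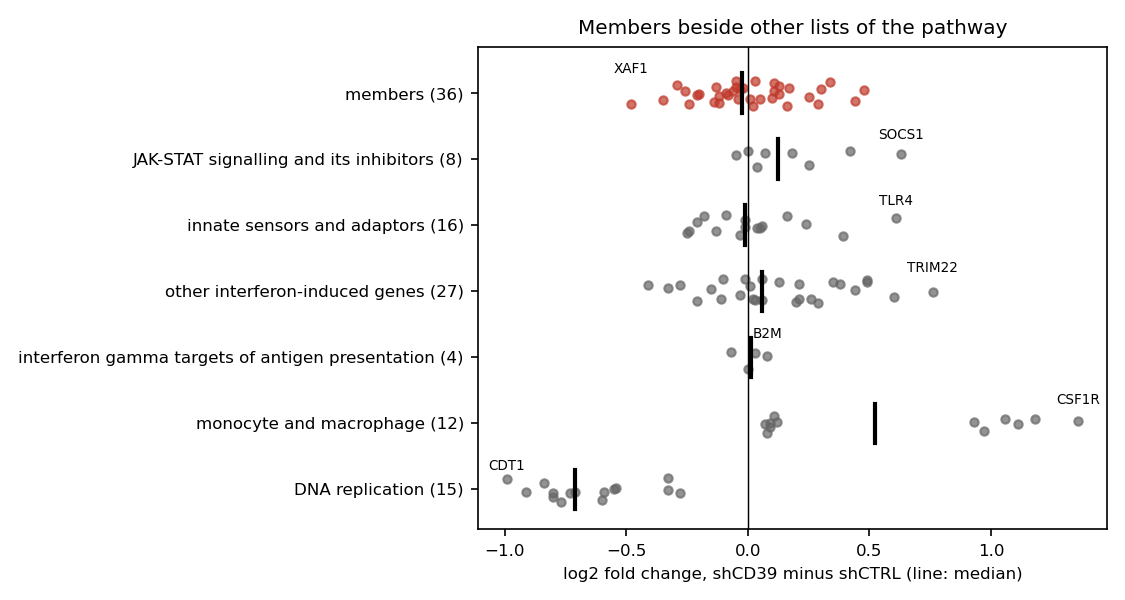
Log2 fold change (shCD39 minus shCTRL, horizontal axis) of each measured gene in the members, in 4 lists of the pathway and in the monocyte and DNA replication markers, with the number of genes in brackets and the median as a black line. The median of the members is -0.02. The monocyte markers run from 0.07 to 1.36 and the DNA replication genes from -0.99 to -0.28. The lists were chosen with earlier results of these data known.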

How the data were processed

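Per the submitters' processing notes, the deposited log2 values were made by the authors with RMA in the oligo package, which corrects background, gives all arrays a shared distribution and summarises each probe set; versions, array model and build are not stated there. A change is thus relative to the bulk of probe sets. Precision is limited by the number of arrays, since they have no read depth. The platform annotation named 16098 of 53617 probe sets, checked through Entrez IDs against RefSeq (GRCh38.p14, 0 symbols changed), and 37519 are unnamed here. Each gene took its probe set with the highest mean, giving 14884 genes, with no filter on dim genes. All were fitted with limma 3.58.1 (lmFit, eBayes) in R 4.3.3, 2-sided, with Benjamini-Hochberg adjustment and a threshold of 0.05; the procedure was tested on simulated data. Single genes also had a 2-sided exact permutation test over the arrays (smallest p 0.0286).

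Members, lists and tests were chosen with earlier results of these data known. Values per array were printed for the 8 members per direction with the largest change. They were also printed for those where 1 array turned the sign of a change of at least 0.1 in size. IFIH1, DDX60, ISG15, MPO, CTSS, S100A8, CSF1R, FGL2, NMI, TYK2 and the pairing of shCD39 arrays were chosen after their values were seen. The labels name no batch. Over all genes, same-numbered arrays did not deviate together (correlations of -0.0372 to 0.0622). This gave no sign that the numbers pair arrays, and pairing in single genes was not tested. Alternatives were 3 normalizations, weights for arrays, a trended and robust prior, averaging a gene's probe sets, leaving arrays out, dropping dim genes, and a block for the replicate number.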

Additional observations from a re-analysis of the deposited data

Results flagged for a closer look

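In 6 of 74 groups of 4 arrays, over ENTPD1 and the 36 members, 1 array stood apart from the other 3 by Dixon's criterion, which flags about 1 group in 20 by chance. In shCD39 these were array 1 of OASL, at 4.32 against 3.72 to 3.81, and array 1 of IFITM2, at 8.92 against 8.46 to 8.52. In shCTRL they were array 3 of IRF9, at 5.41 against 4.80 to 4.86, array 2 of IFITM3, at 5.45 against 4.89 to 4.95, and array 4 of XAF1, at 8.28 against 8.90 to 9.0. The remaining one was shCTRL array 2 of EIF2AK2, at 7.37 against 7.46 to 7.47, which stands apart only because the other 3 lay so close. No array held more than 2 of the 6.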

How the results depend on the processing

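The median log2 fold change of the members lay between -0.06 and 0.04 in every alternative. Over all genes, 14 passed the threshold as deposited, 6 after quantile normalization, 64 with only genes above the median gene (fewer genes tested), 22 with an intensity trend and robust prior, 124 with array weights, 6 with the replicate number as a block, 368 without both arrays numbered 4, and 0 to 423 with 1 array left out (0 without shCTRL array 1 by limma, 423 without shCD39 array 4). Members past the threshold numbered 0, or 1 (XAF1) without shCTRL array 4 or both arrays numbered 4 (log2 fold change -0.64, adjusted p = 0.0234), so 0 to 1 with 1 array left out. Members whose groups did not overlap numbered 0, but 1 after quantile normalization (2.78%, against 7.62% of all genes), 2 after median centring (5.56%, against 8.63%), 1 after cyclic loess (2.78%, against 7.64%), 6 without both arrays numbered 4 (16.7%, against 23.9%) and 0 to 4 with 1 array left out (0% to 11.1%, against 10.0% to 17.0%). Members past an unadjusted p of 0.05 numbered 2 to 6 with 1 array left out (5.56% to 16.7%, against 10.6% to 18.9% of all genes), where all arrays gave 4. Of 25 members above the median gene 10 had a higher mean. The replicate block turned the direction of 0 members and called 0, and over all genes the numbers gave no sign of pairing.

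The members whose signs turned all had log2 fold changes of at most 0.11 in size. Of the 55 measured genes in the pathway lists, 20 turned with 1 array left out, with changes of up to 0.18 in size (TLR9); ERAP1 and TAPBP are among them. After quantile normalization IFITM1 read 0.00, IFITM2 0.08, EPSTI1 -0.03 and ERAP1 0.03. After cyclic loess IFITM2 read 0.08, EPSTI1 -0.03 and ERAP1 0.02. After median centring IRF2 and ISG15 read -0.03, EPSTI1 -0.00 and TAPBP -0.04. Without both arrays numbered 4 IFITM2 read 0.00, MX2 -0.08 and EPSTI1 -0.01. With 1 array left out, log2 fold changes ran from -0.19 to 0.10 for IRF1, -0.11 to 0.02 for ISG20, -0.24 to 0.18 for IFIH1, -0.14 to 0.04 for HERC5, -0.17 to 0.08 for IFITM1, -0.12 to 0.16 for IFIT3 and -0.13 to 0.08 for IFITM2. They ran from -0.05 to 0.08 for ISG15, -0.04 to 0.12 for EPSTI1, -0.07 to 0.09 for IRF2, -0.03 to 0.15 for IRF7, -0.03 to 0.27 for MX2, -0.04 to 0.16 for OASL, -0.05 to 0.25 for IFIT1, -0.14 to 0.03 for ERAP1 and -0.08 to 0.18 for TAPBP. SOCS1 passed the threshold with only genes above the median gene (adjusted p = 0.0473) and with array weights (0.0498). The causes were not tested.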
